A study of Rattus norvegicus with 12 samples.

Results

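The transcripts described here are 9 genes of extracellular matrix turnover: the matrix metalloproteinases Mmp2, Mmp3, Mmp9, Mmp12 and Mmp14, and the tissue inhibitors of metalloproteinases Timp1, Timp2, Timp3 and Timp4. They were taken by symbol from a table of read counts for 32883 rat genes, in which all 9 were present. Of these, 8 passed the filter on low counts, and Mmp3 did not. Mmp12 was selected on its measured level, since earlier results of these data showed it to be higher than in LacZ, so its values are given as a description with no test, and the counts of changed members leave it out.

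Poly(A) RNA was sequenced from ventricular cardiomyocytes of newborn rats, kept in primary culture, 2 days after an adenovirus had been added. The 12 libraries form 4 groups of 3. Per the labels all groups received a virus: one carrying LacZ (a bacterial gene, the control), human wild-type KAT6A (WT), KAT6A-K815R (a form that resists acetylation at that lysine) or KAT6A-K815Q (a form that mimics acetylation there). KAT6A is a histone acetyltransferase, and the study asked how its own acetylation bears on growth and mitochondrial metabolism through AMPK. The labels do not say whether the 3 libraries of a group came from separate cell preparations, so the tests measure the spread between libraries, which may be technical.

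Matrix metalloproteinases are zinc-dependent enzymes that are made as inactive proenzymes and, once activated, cut collagens, elastin, proteoglycans and cell-surface proteins. TIMPs bind the active enzymes and block them, so that the amounts of both set how much matrix is broken down. In the heart, cardiomyocytes, fibroblasts, endothelial cells and macrophages each supply part of the system, and it is best known for its role in the remodelling of the ventricle after infarction and under pressure overload. Activity depends on secretion, activation and inhibition of the proteins, none of which RNA levels show.

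Each library held between 19102048 and 25451686 reads counted to genes. Levels are CPM, a gene's count scaled to library size with TMM factors, and 3 counts (0.118 to 0.156 CPM) were taken as the floor below which levels have no order. Levels are compared between groups for 1 gene at a time and not between genes, since transcript lengths were not used. The 10 cardiomyocyte markers examined (among them Myh6, Tnnt2 and Actn2) summed to 51017 to 59190 CPM in every library, as the label of the cells calls for. K815R had 58044 to 59190 CPM, above every other library (at most 54965 in LacZ, 54732 in WT and 55041 in labelled K815Q). In turn, 10 fibroblast markers summed to 11048 to 12889 CPM. K815R had 11149 to 11586 CPM of these, below LacZ (11903 to 12777), while WT and labelled K815Q overlapped LacZ. Col1a1 made up most of this sum, with means of 8256 CPM in LacZ and 7480 CPM in K815R. Of the 10 fibroblast markers, 5 had a log2 fold change above 0 in K815R against LacZ. The median of the 10 was -0.007, and 0 were called. The part of the differences in marker sums in the values of the members was not tested. Fewer cells of a type and less RNA per cell cannot be told apart in such bulk RNA. Kat6a checks the labels: it stood at 45.2 to 53.6 CPM in LacZ, 82.0 to 106 in WT and 101 to 122 in K815R, but at 43.4 to 50.0 CPM in the libraries labelled K815Q, which shows no excess over LacZ although the label names a KAT6A virus. Those libraries are named by their label throughout, and each direction given for them rests on it. Prkaa2, a catalytic subunit of AMPK, also set the groups apart, at 54.8 to 72.7 CPM in LacZ, 435 to 633 in WT, 78.1 to 95.4 in K815R and 1134 to 1232 CPM in labelled K815Q. It was called higher than LacZ in WT and in labelled K815Q (log2 fold changes 3.09 and 4.26, adjusted p 2.51e-05 and 4.06e-06 by edgeR) and not in K815R (0.52, adjusted p 0.190 by edgeR). WT and labelled K815Q are also the groups with the most Mmp12, and the part of Prkaa2 in the values of the members was not tested.

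Mmp12 (ENSRNOG00000030187), the macrophage elastase, is the member that was chosen for its level. The LacZ libraries gave 31.9, 20.9 and 28.2 CPM, WT gave 49.4, 51.9 and 42.5, K815R gave 38.8, 35.3 and 40.8, and the K815Q-labelled libraries gave 48.2, 50.0 and 43.8 CPM. Each of the 9 libraries of the other groups thus lay above each LacZ library, K815R lay between LacZ and the other forms without overlap, and WT and labelled K815Q covered the same range. Among all genes tested, 7.69% had all K815R libraries below all libraries labelled K815Q. The share for K815R below WT is not reported here, so nothing is read from the lack of overlap between the forms. LacZ replicate 2 was the lowest of all 12.

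The mean levels were 27.0 ± 5.59 CPM with LacZ, 48.0 ± 4.87 with WT, 38.3 ± 2.77 with K815R and 47.3 ± 3.17 with labelled K815Q (SD, n = 3 each). Relative to LacZ the means gave ratios of 1.78, 1.42 and 1.75, with fitted log2 fold changes of 0.83 (SE 0.131), 0.50 (SE 0.132) and 0.81 (SE 0.131). Those for WT, K815R and labelled K815Q were exceeded by 109, 268 and 89 of the 14063 genes tested. These ranks carry the choice of Mmp12, and nothing is read from them. Without LacZ replicate 2 the values against LacZ were 0.67, 0.35 and 0.66. In the background of all genes tested, 12.3%, 9.11% and 13.9% had all libraries of WT, K815R and labelled K815Q above all LacZ libraries; the choice of Mmp12 used this contrast, so nothing is read from it. All comparisons with LacZ share the same 3 LacZ libraries. Between the forms, Mmp12 in K815R lay at a log2 fold change of -0.32 (SE 0.128) from WT and -0.31 (SE 0.128) from the libraries labelled K815Q, and the latter lay at -0.02 from WT, with a 95% interval of -0.30 to 0.26.

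**Figure D1:**
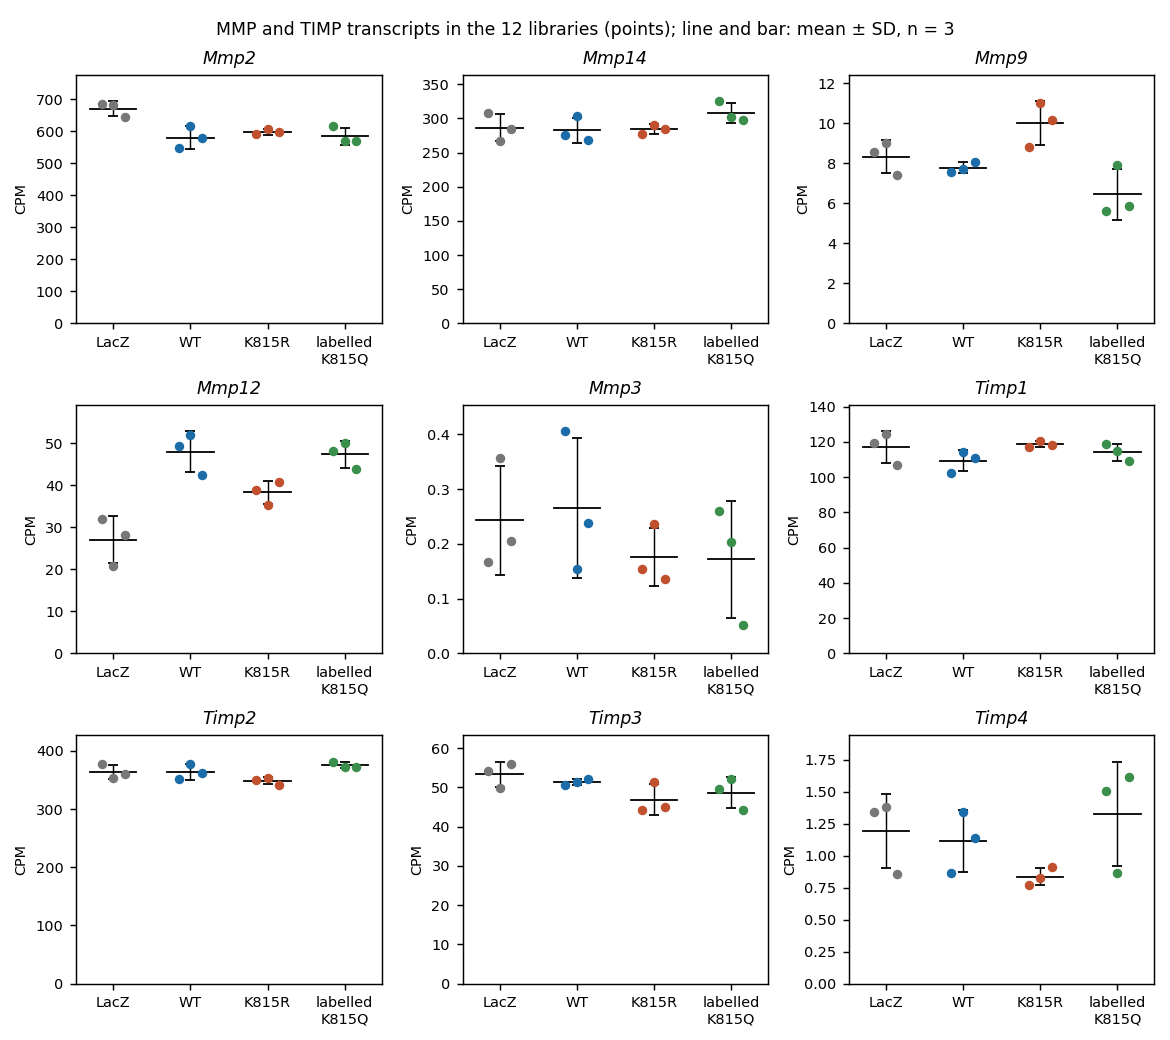
CPM of the 9 members (vertical axes, from 0, a scale for each gene) in the 4 groups (horizontal axes), with 1 point per library and the mean ± SD of 3 libraries. Mmp12 shows the 9 libraries labelled WT, K815R or K815Q above the LacZ libraries, Mmp2 shows them below, and the TIMPs show overlap of each of these groups with LacZ.

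Mmp12 lies in a cluster of metalloproteinase genes on rat chromosome 8, and the promoters of Mmp12 and of its neighbour Mmp3 are shown beside that of the inhibitor Timp1 because of the pair only Mmp12 had reads enough to be tested. RefSeq's table for assembly GRCr8 held a promoter (250 bases before to 50 after the gene start, on the gene's strand) for 6 of the 9 members. These short motifs were searched: the AP-1 site TGANTCA and the PEA3 (ETS family) site AGGAAG on both strands, and the TATA box TATAAA on the gene's strand, with no overlap between the matches shown. Capitals mark the matches.
Mmp12, chr8:12866402-12866701, plus strand: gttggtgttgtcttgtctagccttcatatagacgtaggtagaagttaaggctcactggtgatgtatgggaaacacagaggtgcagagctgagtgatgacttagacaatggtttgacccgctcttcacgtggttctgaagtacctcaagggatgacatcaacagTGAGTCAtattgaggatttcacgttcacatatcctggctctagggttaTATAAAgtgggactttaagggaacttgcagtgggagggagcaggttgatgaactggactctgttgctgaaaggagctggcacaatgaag
Mmp3, chr8:12925031-12925330, plus strand: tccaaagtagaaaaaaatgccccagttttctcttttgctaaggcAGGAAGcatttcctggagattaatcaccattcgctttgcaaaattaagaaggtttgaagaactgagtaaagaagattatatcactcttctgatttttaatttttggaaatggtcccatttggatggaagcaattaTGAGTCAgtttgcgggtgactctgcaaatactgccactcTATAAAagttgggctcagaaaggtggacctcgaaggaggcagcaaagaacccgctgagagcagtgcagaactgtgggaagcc
Timp1, chrX:3771073-3771372, minus strand: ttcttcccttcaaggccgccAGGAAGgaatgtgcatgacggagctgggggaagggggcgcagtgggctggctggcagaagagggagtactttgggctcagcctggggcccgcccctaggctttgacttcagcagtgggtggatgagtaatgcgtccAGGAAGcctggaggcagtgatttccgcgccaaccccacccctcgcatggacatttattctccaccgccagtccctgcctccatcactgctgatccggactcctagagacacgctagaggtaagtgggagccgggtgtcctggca

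Both protease promoters held the AP-1 letters TGAGTCA, 87 bases before the gene start in Mmp12 and 71 in Mmp3, and a TATA box 39 and 32 bases before it, counted to the first base of the match. Mmp3 also held a PEA3 match and Mmp12 held none. Timp1 held 2 PEA3 matches and no match to the AP-1 or TATA letters searched. Timp2, Timp3 and Timp4 held no match to those letters in this window either. Variants of the AP-1 letters, such as the TGAGTAA in the Timp1 window, were not searched, so an AP-1 site there is not excluded. Among all 33469 promoters of this length in the table, 7.33% held the AP-1 letters, 34.5% the PEA3 letters and 8.80% the TATA box. Such matches are letters in a sequence, and no binding was measured.

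The 10 genes of the cluster run in the order Mmp13, Mmp12, Mmp1b, Mmp3, Mmp1, Mmp10, Mmp8, Mmp27, Mmp20 and Mmp7 in that assembly. Mmp12 had 469 to 1005 reads per library and 97.6% of all reads counted in the cluster over the 12 libraries. None of the 9 other genes passed 17 reads in any library. The stromelysin Mmp3 (ENSRNOG00000032626), which cuts proteoglycans and activates other proenzymes, had 4, 8 and 5 reads with LacZ, 8, 3 and 5 with WT, 3, 6 and 3 with K815R and 5, 4 and 1 with labelled K815Q, close to the floor. It was left out of the test for that reason, and differences in Mmp3 were not detectable at this depth.

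Most macrophage markers had positive values, as Mmp12 did. Of 12 markers in the list, 11 were tested and 9, 10 and 10 of them had a log2 fold change above 0 for WT, K815R and labelled K815Q against LacZ, with medians of 0.12, 0.22 and 0.26. Over all genes tested the medians were 0.01, 0.00 and 0.01. Of the 11, 1 was called higher in each comparison, beside 1.95%, 0.740% and 2.87% of all genes. That was Lyz2, the lysozyme of myeloid cells (0.33, 0.33 and 0.48, edgeR with Benjamini-Hochberg adjusted p 0.0173, 0.0283 and 7.14e-04). Adgre1, the F4/80 antigen, was called lower in the libraries labelled K815Q (-0.54, adjusted p 0.0356 by edgeR), where 4.98% of all genes were. Whether the Adgre1 call was kept with single libraries left out was not examined. The first pair of Lyz2 calls was each lost in 4 of the 12 fits without 1 library, including those without LacZ replicate 2 (0.24 in both) and without LacZ replicate 3 (0.31 in both). In WT it was also lost without WT replicate 2 or 3 (0.33 and 0.30), and in K815R without K815R replicate 1 or 3 (0.31 and 0.30) and when just the 6 libraries of both groups were fitted (0.33, adjusted p 0.0704 by edgeR).

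The 12 macrophage markers summed to 80.2 to 104 CPM with LacZ, 102 to 110 with WT, 105 to 112 with K815R and 108 to 116 with labelled K815Q, with the lowest sum in LacZ replicate 2, the library that was also lowest in Mmp12. Marco was at 0 or 1 read in every library, and no other marker of the list failed the filter. Relative to the summed counts of these markers in the same library, the log2 ratio of Mmp12 was -1.71, -1.94 and -1.73 with LacZ, -1.05, -1.06 and -1.37 with WT, -1.53, -1.58 and -1.42 with K815R, and -1.26, -1.19 and -1.30 with labelled K815Q. The means of WT, K815R and labelled K815Q lay 0.63, 0.28 and 0.54 above LacZ. Since Mmp12 was chosen for its rise over LacZ, a ratio with Mmp12 carries that choice, and nothing is read from its separation from LacZ. That these differences are smaller than those of Mmp12 alone follows from the higher mean marker sums, so nothing is read from it. The part of macrophage RNA in the Mmp12 values was not tested. Neutrophil markers summed to at most 1.61 CPM and lymphocyte markers to at most 0.182 CPM in any library.

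**Figure D2:**
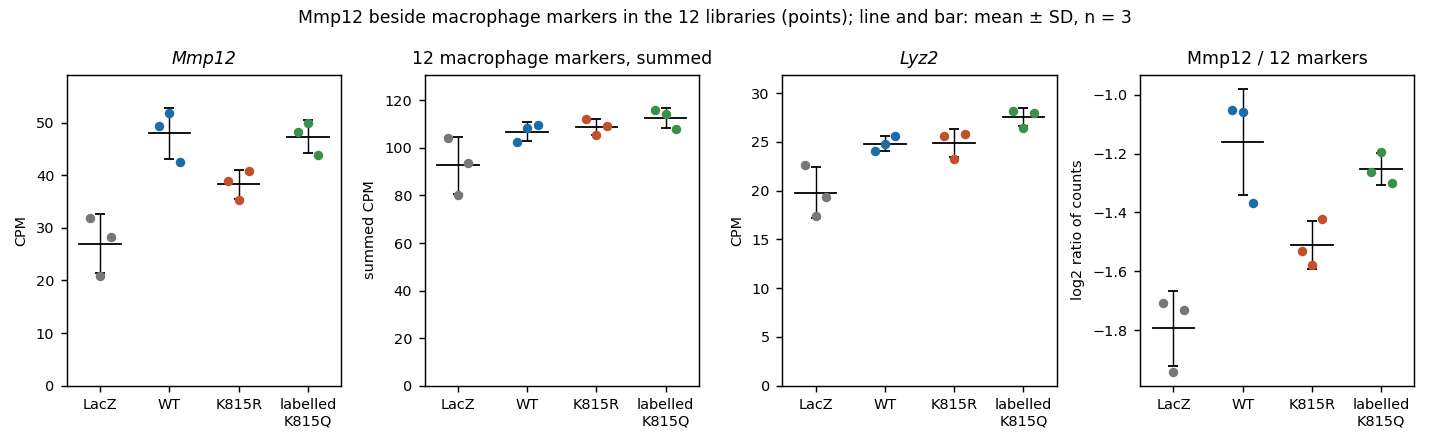
Mmp12 (CPM), the sum of 12 macrophage markers (CPM), Lyz2 (CPM) and the log2 ratio of Mmp12 counts to the summed marker counts in the 4 groups, 1 point per library with the mean ± SD of 3. All 4 panels place LacZ lowest on average, and the ratio, which carries the choice of Mmp12, is at most -1.71 in LacZ and at least -1.58 in the 9 other libraries.

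The genes closest to Mmp12 in profile were found by the root mean square difference of log2 CPM over the 12 libraries, after each gene's own mean was removed. Among 12724 genes of at least 1 CPM these were Nfam1 (0.149), Phox2a (0.168), Laptm5 (0.170), Arhgap45 (0.175) and Plau (0.176), against a median of 0.388 over all genes compared. Laptm5, a lysosomal membrane protein of blood cells, stood at 11.8 ± 1.94 CPM with LacZ and at 16.4 ± 1.39, 14.9 ± 0.865 and 16.9 ± 1.45 CPM with WT, K815R and labelled K815Q (SD, n = 3). In the same order, the mean CPM of Nfam1 was 2.69, 4.19, 3.52 and 4.39. That of Phox2a was 2.72, 4.29, 3.74 and 4.01, and that of Arhgap45 was 1.96, 3.26, 2.67 and 3.41. Plau had means of 10.2, 15.8, 14.3 and 14.3 CPM. These levels carry the choice by likeness to Mmp12. All 5 genes, like Mmp12, had their lowest level in LacZ replicate 2, which the choice by likeness favours.

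Mmp2 (ENSRNOG00000016695), gelatinase A, which degrades denatured collagen and basement membrane collagen, fell under WT and in the libraries labelled K815Q. Its libraries gave 686, 684 and 644 CPM with LacZ, 547, 617 and 579 with WT, 591, 608 and 599 with K815R, and 616, 570 and 571 with the virus labelled K815Q. All 9 libraries labelled WT, K815R or K815Q lay below all 3 LacZ libraries, while these groups overlapped one another. Against a LacZ mean of 671 ± 23.4 CPM (SD, n = 3), the fitted log2 fold change was -0.21 for WT (SE 0.0521, adjusted p 0.0180) and -0.20 for labelled K815Q (SE 0.0521, adjusted p 0.0236), by edgeR with Benjamini-Hochberg adjustment. For K815R it was -0.16 (SE 0.0521, adjusted p 0.107 by edgeR), which was not called. Among all genes tested, 3.39%, 1.74% and 4.98% were called lower against LacZ in these comparisons, and 12.3%, 9.60% and 14.5% had groups that did not overlap in the lower direction.

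These differences were small, a mean 13.5% and 12.8% below LacZ in the comparisons called. The call in WT was lost in 4 of the 12 fits without 1 library: those without LacZ replicate 1 or 2 (-0.19 and -0.20) and without WT replicate 1 or 3 (-0.17 and -0.21). That in the libraries labelled K815Q was lost without LacZ replicate 1 or 2 (-0.18 in both) and without K815Q replicate 2 or 3 (-0.18 in both). No difference between the forms was called for Mmp2: the log2 fold changes were 0.04 for K815R against WT, 0.01 for labelled K815Q against WT and 0.03 for K815R against labelled K815Q. Their 95% intervals together ran from -0.10 to 0.15.

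Mmp9 (ENSRNOG00000017539), gelatinase B, an enzyme much made by neutrophils and macrophages, separated the acetylation-resistant form from the libraries labelled as the acetylation mimic. Its libraries gave 8.55, 9.00 and 7.42 CPM with LacZ, 7.56, 7.70 and 8.08 with WT, 8.81, 11.0 and 10.2 with K815R, and 5.61, 7.92 and 5.84 with the virus labelled K815Q, from 108 to 279 reads per library. The K815R libraries were the highest on average and did not overlap WT or labelled K815Q, while K815Q replicate 2 lay within the LacZ range. The log2 fold change of K815R over labelled K815Q was 0.63 (SE 0.124, adjusted p 0.0217 by edgeR with Benjamini-Hochberg adjustment), a call that 0.363% of all genes reached in that comparison.

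This call was lost without K815R replicate 2 or 3 (0.56 and 0.62) and without K815Q replicate 1 or 3 (0.54 and 0.57). Against LacZ, Mmp9 had log2 fold changes of -0.10 for WT, 0.27 for K815R and -0.36 for labelled K815Q, none of them called (adjusted p 0.735, 0.287 and 0.0768 by edgeR). The last was called without K815Q replicate 2 (-0.54, adjusted p 0.0141) and with no filter on low counts (-0.37, adjusted p 0.0264, both by edgeR). The difference between K815R and WT, 0.37 (adjusted p 0.131 by edgeR), was not called either, and without the filter it was (0.37, adjusted p 0.0337 by edgeR). Summed neutrophil markers were 1.13 to 1.27 CPM with LacZ and 0.609 to 0.808, 0.828 to 1.18 and 0.625 to 1.61 CPM with WT, K815R and labelled K815Q, and their part in the Mmp9 values was not tested.

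Mmp14 (ENSRNOG00000010947), a membrane-bound enzyme that activates pro-Mmp2 at the cell surface, was called in no comparison. Its libraries gave 308, 267 and 285 CPM with LacZ, 276, 303 and 269 with WT, 277, 291 and 285 with K815R, and 325, 302 and 298 with the virus labelled K815Q. LacZ overlapped each of the forms, and the libraries labelled K815Q lay just above those of K815R. The log2 fold changes against LacZ were -0.02, -0.01 and 0.11, and their 95% intervals together ran from -0.14 to 0.22.

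**Figure D3:**
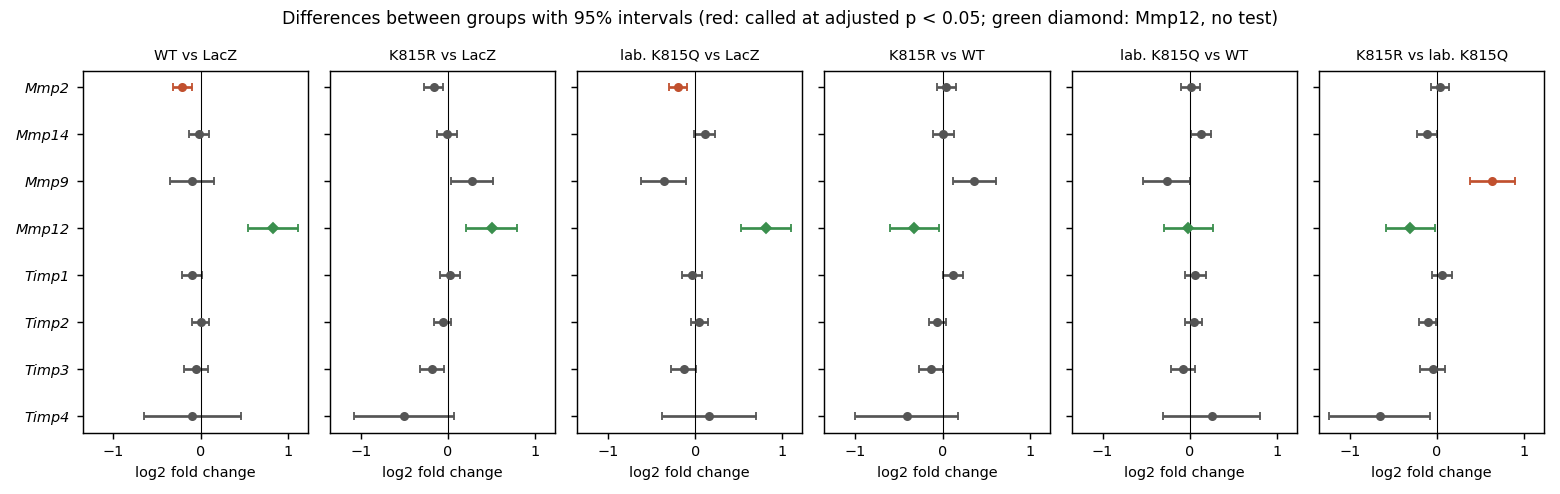
Fitted log2 fold changes (horizontal axes) with 95% intervals of the 8 members tested, in the 6 comparisons of the 4 groups. Red points passed the test (Mmp2 in WT and in labelled K815Q against LacZ, Mmp9 in K815R against labelled K815Q), grey points did not, and the green diamonds of Mmp12 carry no test.

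None of the 4 inhibitors was called in any of the 6 comparisons. Timp1 (ENSRNOG00000010208), an inducible inhibitor that also binds pro-Mmp9, gave 120, 124 and 107 CPM with LacZ, 103, 114 and 111 with WT, 117, 120 and 118 with K815R, and 119, 115 and 109 with the virus labelled K815Q. Each form overlapped LacZ, and K815R lay just above WT. Against LacZ its log2 fold changes were -0.10, 0.02 and -0.03, with 95% intervals that together ran from -0.22 to 0.14. Timp2 (ENSRNOG00000003148), which both inhibits Mmp2 and helps Mmp14 to activate it, gave 377, 353 and 360 CPM with LacZ, 351, 378 and 363 with WT, 350, 354 and 342 with K815R, and 382, 372 and 372 with the virus labelled K815Q. Its log2 fold changes against LacZ were 0.00, -0.06 and 0.05, with intervals from -0.15 to 0.14. These are the narrowest intervals among the members.

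Timp3 (ENSRNOG00000004303), the inhibitor that stays bound to the matrix, gave 54.2, 49.9 and 56.1 CPM with LacZ, 50.5, 51.5 and 52.1 with WT, 44.3, 51.3 and 45.0 with K815R, and 49.5, 52.2 and 44.3 with the virus labelled K815Q. Its means were below LacZ in all 3 comparisons, with log2 fold changes of -0.06, -0.19 and -0.13 (adjusted p 0.715, 0.178 and 0.226 by edgeR), and every form overlapped LacZ. Timp4 (ENSRNOG00000007955), an inhibitor best known from the heart, had 15 to 32 reads per library (0.773 to 1.62 CPM). Its log2 fold change of -0.66 between K815R and labelled K815Q had a 95% interval of -1.24 to -0.08 but was not called (adjusted p 0.366 by edgeR), and at this depth its intervals against LacZ reached from -1.07 to 0.69. In the RefSeq table Timp1, Timp3 and Timp4 lie within the spans of Syn1, Syn3 and Syn2, and Timp2 overlaps Cep295nl. The synapsin genes had at most 28 reads in any library, and the strand setting of the counts is not given in the sources used here.

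The calls of the members other than Mmp12 were set against all genes. Of the 7 tested, 1 was called in WT against LacZ, where 5.34% of all genes were called, 0 in K815R, where 2.47% were, and 1 in the libraries labelled K815Q, where 7.85% were. At an unadjusted p under 0.05, the comparison of K815R with LacZ had 3 members (Mmp2, Mmp9 and Timp3), with p of 0.00452, 0.0292 and 0.0110 by edgeR, where 13.8% of all genes had such a p. Between the forms, 0 of 7 were called in K815R against WT (2.20% of all genes), 0 in labelled K815Q against WT (1.07%) and 1 in K815R against labelled K815Q. At an unadjusted p under 0.05 there were 2 such members in K815R against WT (Mmp9 and Timp1, p 0.00573 and 0.0485, by edgeR) and 1 in labelled K815Q against WT (Mmp14, p 0.0376), where 13.8% and 14.4% of all genes had one. DESeq2 also gave 0 calls in K815R against LacZ and in both comparisons with WT. Groups did not overlap for 2 of 7 in K815R against WT, both higher (9.49% of all genes), for 0 in labelled K815Q against WT (19.3% in either direction), and for 1 higher and 2 lower in K815R against labelled K815Q (8.28% and 7.69%). The median log2 fold change of the 7 against LacZ was -0.09, -0.06 and -0.03, beside 0.01, 0.00 and 0.01 over all genes tested. In the test for any difference among the 4 groups, Mmp2 and Mmp9 were called (adjusted p 0.0292 and 0.0120 by edgeR), 2 of 7 beside 8.13% of all genes.

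The balance of enzyme and inhibitor was examined as the log2 ratio of their counts within each library, for 4 pairs that were chosen with the values known. The ratio of Mmp2 to Timp2 was 0.86, 0.95 and 0.84 with LacZ, 0.64, 0.71 and 0.67 with WT, 0.75, 0.78 and 0.81 with K815R, and 0.69, 0.61 and 0.62 with labelled K815Q. All 9 libraries of the other groups lay below LacZ, and K815R lay above WT and labelled K815Q without overlap. The differences of the means from LacZ were -0.21, -0.11 and -0.25. With 3 libraries against 3, the smallest two-sided p that an exact permutation test can give is 0.1, so these ratios carry no test.

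For Mmp14 and Timp2 the ratio of every form overlapped LacZ, with mean differences from it of -0.02, 0.05 and 0.06. For Mmp9 and Timp1 the ratios were -3.81, -3.79 and -3.85 with LacZ, -3.76, -3.89 and -3.78 with WT, -3.73, -3.45 and -3.54 with K815R, and -4.40, -3.86 and -4.23 with labelled K815Q. K815R lay above all other libraries. Labelled K815Q lay below LacZ, its replicate 2 only just, and overlapped WT. The ratio of Mmp12 to Timp1 rested on Mmp12 and followed it, with means 0.94, 0.50 and 0.86 above LacZ.

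**Figure D4:**
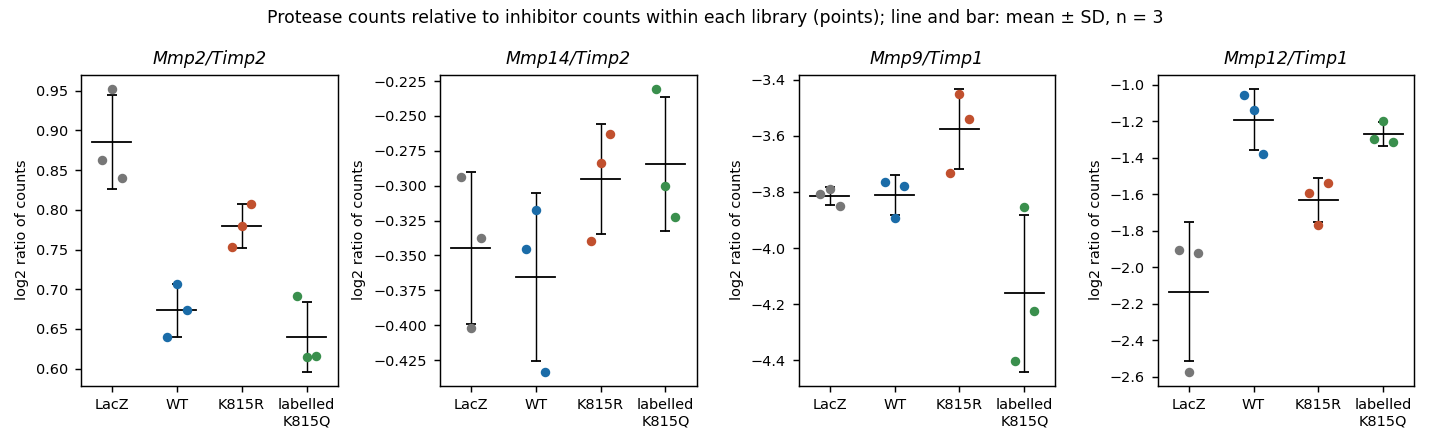
Log2 ratio of protease to inhibitor counts (vertical axes, a scale for each pair, not from 0) in the 4 groups, 1 point per library with the mean ± SD of 3. Mmp2/Timp2 lies lower in the 9 libraries labelled WT, K815R or K815Q than in LacZ (0.84 to 0.95), and Mmp9/Timp1 is highest in K815R and lowest in the libraries labelled K815Q.

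Other genes of matrix turnover were taken as 5 lists. Calls higher and lower against LacZ made up 1.95% and 3.39% of all genes for WT, 0.740% and 1.74% for K815R, and 2.87% and 4.98% for labelled K815Q. Of 18 other metalloproteinases listed, 16 were in the table and 8 were tested, and 1 was called in each comparison with LacZ. Mmp15, a membrane-type enzyme, was higher in WT, at 104 ± 3.79 against 89.9 ± 1.36 CPM (SD, n = 3; log2 fold change 0.21, adjusted p 0.0273 by edgeR). Mmp16, another membrane-type enzyme, was lower in K815R, at 14.0 ± 0.521 against 18.1 ± 2.69 CPM (-0.37, adjusted p 0.0291 by edgeR), and Mmp23 was higher in the libraries labelled K815Q, at 58.2 ± 2.22 against 49.0 ± 2.78 CPM (0.25, adjusted p 0.0163 by edgeR). K815R was also lower than WT in Mmp15 (-0.22, adjusted p 0.0408 by edgeR), a call that 5 of 12 fits without 1 library kept, with -0.24 to -0.17 over them, and that was lost when just the 6 libraries of both groups were fitted (adjusted p 0.0595 by edgeR). Each call against LacZ was lost without single libraries. For Mmp15 these were each LacZ library and WT replicates 2 and 3 (0.18 to 0.21), for Mmp16 LacZ replicate 3 (-0.24) and each K815R library (-0.39, -0.37 and -0.34), and for Mmp23 LacZ replicates 2 and 3 and K815Q replicates 1 and 3 (0.21 to 0.25). That of Mmp16 was also lost when just the LacZ and K815R libraries were fitted (-0.37, adjusted p 0.0603 by edgeR).

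Among 26 activators and other inhibitors, 1 was called higher and 2 lower in WT, 0 in K815R, and 2 higher and 2 lower in the libraries labelled K815Q. The 0 in K815R became 1 with RLE scaling and without the libraries labelled K815Q, and 2 with no filter, with DESeq2 and when just the 6 libraries of both groups were fitted, and the 4 in labelled K815Q fell to 1 without K815Q replicate 1 and to 2 without LacZ replicate 2 or 3 or K815Q replicate 2 or 3. Plau, the urokinase that starts the plasmin route of proenzyme activation, gave 11.6, 8.33 and 10.5 CPM with LacZ, 15.0, 19.3 and 13.3 with WT, 12.9, 15.3 and 14.8 with K815R and 14.0, 15.8 and 13.0 with labelled K815Q. It was called in WT (0.63, adjusted p 0.0136) and labelled K815Q (0.49, adjusted p 0.0460) and not in K815R (0.50, adjusted p 0.0771, all by edgeR). The call in WT was lost without LacZ replicate 2 or 3 (0.51 and 0.65) or WT replicate 2 (0.47), and that in labelled K815Q was kept in 4 of 12 such fits, with 0.37 to 0.60.

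Pcsk6, a proprotein convertase, fell in WT (-0.37, adjusted p 0.00560 by edgeR), also without any 1 library. Lcn2, which binds Mmp9 and protects it from breakdown, stood at 84.5, 138 and 77.0 CPM in LacZ and at 48.1 to 54.2 CPM in labelled K815Q (-0.95, adjusted p 0.0291 by edgeR). WT and K815R were also below LacZ without overlap, at 54.4 to 58.3 and 65.5 to 70.7 CPM, but were not called (-0.83 and -0.55, adjusted p 0.0514 and 0.245 by edgeR). The call of Lcn2 was lost without any 1 of the K815Q libraries (-0.96, -0.98 and -0.90) and when just the 6 libraries of both groups were fitted (-0.95, adjusted p 0.137 by edgeR).

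Of 25 ADAM and ADAMTS proteases tested, 1 was higher and 2 were lower in WT, 1 was lower in K815R and 4 were lower in labelled K815Q. Adamts5, an aggrecanase, had 22.4 CPM with LacZ and fell to 15.7 with WT (-0.51, adjusted p 5.24e-04 by edgeR), also without any 1 library. Adamts14 was lower in WT (-0.35), Adam9 in labelled K815Q (-0.23), and Adamts1 in K815R and labelled K815Q (-0.22 and -0.25). Of those fits, 7, 6, 7 and 10 kept these 4 calls, and over them the values ran from -0.47 to -0.25, -0.28 to -0.18, -0.26 to -0.19 and -0.30 to -0.21.

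Of 27 matrix substrates tested, 1 rose and 2 fell in WT, 2 fell in K815R, and 1 rose and 4 fell in labelled K815Q. Tnc, tenascin C, a matrix protein of remodelling tissue, fell in all 3, from 180 CPM in LacZ to 147, 135 and 137 (-0.29, -0.41 and -0.39, adjusted p 0.00297, 2.09e-04 and 1.57e-04 by edgeR), also without any 1 library. Fbn2, a fibrillin, was lower in WT than in LacZ (-0.41), K815R (K815R against WT 0.48) and labelled K815Q (against WT 0.54), with adjusted p of 0.0155, 0.0132 and 0.00807 by edgeR. The first was lost without LacZ replicate 3 (-0.31) or WT replicate 1 or 3 (-0.38 and -0.41), the next without WT replicate 1 or 3 or K815R replicate 1 or 2 (0.45, 0.48, 0.45 and 0.41), and the last without WT replicate 1 (0.51). Fmod was lower in K815R (-0.37) and Lamc1 in labelled K815Q (-0.30), each kept in 8 of 12 such fits, over -0.43 to -0.34 and -0.36 to -0.24.

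Of 27 regulators tested, 2 fell in WT, 1 fell in K815R, and 1 rose and 1 fell in labelled K815Q. The 2 calls in labelled K815Q became 5 with no filter, 4 without K815Q replicate 3 and 1 without LacZ replicate 3, WT replicate 2, K815R replicate 3 or K815Q replicate 1. Csf1, the growth factor of macrophages, fell in all 3 comparisons, from 97.2 to 106 CPM in LacZ to 76.9 to 79.7 in WT, 75.5 to 78.4 in K815R and 78.2 to 83.6 CPM in labelled K815Q (-0.38, -0.41 and -0.35, adjusted p 5.80e-05, 4.69e-05 and 1.17e-04 by edgeR). Each fit without 1 library kept these calls. Cebpb, a transcription factor of inflammatory genes, fell in WT (-0.37, adjusted p 9.65e-04) and was higher in labelled K815Q than in LacZ (0.21, adjusted p 0.0429, both by edgeR), the second kept in 5 of 12 such fits with 0.15 to 0.26. Against WT, Cebpb was called higher in labelled K815Q (0.57) and in K815R (0.31), kept in 12 and 10 of 12 such fits. In these comparisons 1.07% and 2.20% of all genes were called in either direction. The cytokines Il1a, Il1b and Tnf were too low to be tested. None of these 5 lists had a median log2 fold change beyond 0.11 in size against LacZ, beside at most 0.01 over all genes.

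**Figure D5:**
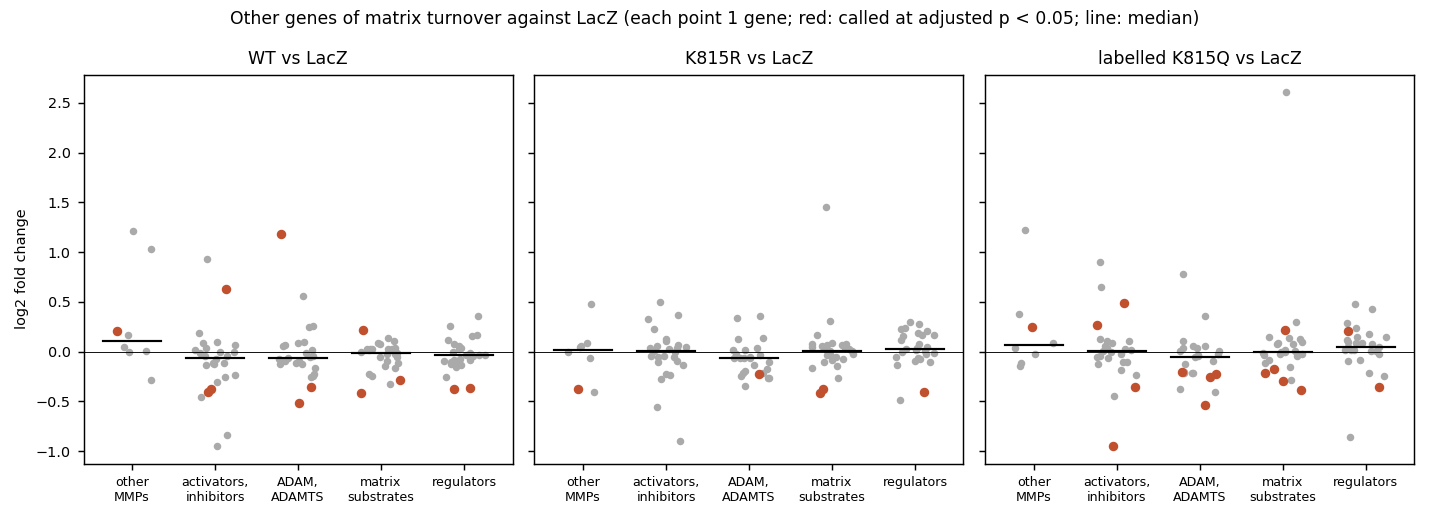
Log2 fold change against LacZ (vertical axis) of each tested gene in 5 lists of matrix turnover (horizontal axis), for WT, K815R and labelled K815Q. Red points passed the test, the black line is the median of the list, and the medians lie within 0.11 of 0; the few grey points far from 0 did not pass it.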

How the data were processed

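Read counts per gene were deposited by the authors as 1 table, and the submitters' processing notes name Trimmomatic 0.39, HISAT2 2.2.1, HTSeq 0.6.1, edgeR and the build Rnor_6.0, without their roles. The strand setting is not given in the sources used here. The table's 5 last lines name no gene (reads in no feature made up 11.7% to 12.9% of all reads, and reads placed at more than 1 locus 25.6% to 26.9%). They were left out. Groups and replicate numbers come from the titles.

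From these counts, the filter filterByExpr with a minimum count of 10 and a minimum total of 15 left 14063 genes, which were scaled by TMM and tested with the quasi-likelihood test of edgeR 4.0.16 (robust, R 4.3.3) in 1 model of group means over the 12 libraries. The Benjamini-Hochberg adjustment ran over all genes tested, with calls at under 0.05. Standard errors and 95% intervals come from that model, and the prior count for log2 CPM was 2. The code was tested on simulated data. Replicates were compared by chi-square, which lay at 4.78 to 9.29 per degree of freedom, so none was a duplicate of another.

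The members, lists and tests were chosen with earlier results of these data known. All members were described. Of each other list, up to 4 genes called against LacZ with at least 5 CPM on average and the largest change were named. One gene that this rule named is not reported here. For Mmp12 the 5 genes of at least 1 CPM with the most similar profile were named. Lyz2, Adgre1 and Marco were singled out after their values were seen. Promoter sequences are RefSeq's, on GRCr8. Other settings tried were a block for the replicate number, DESeq2 1.42.0, scaling by RLE or by upper quartile, a filter of 10 counts in all libraries or none, the 6 libraries compared alone, and each library left out. A fit without the libraries labelled K815Q was added after seeing the data.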

Additional observations from a re-analysis of the deposited data

How the results depend on the processing

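Without Mmp12, the members called against LacZ numbered 1 for WT, 0 for K815R and 1 for labelled K815Q. With each library left out in turn these ran from 0 to 1, 0 to 0 and 0 to 1. Against WT there were 0 for K815R and 0 for labelled K815Q, and 0 to 0 in such fits. K815R against labelled K815Q had 1 (0 to 1), and the test of any difference 2 (1 to 2). Without K815Q replicate 2 the member called in labelled K815Q against LacZ was Mmp9 and not Mmp2. With no filter the counts were 2 (Mmp2 and Mmp9) in labelled K815Q against LacZ and 1 (Mmp9) in K815R against WT. RLE and upper-quartile scaling, 10 counts in every library, DESeq2, the 6 libraries alone and the fit without the libraries labelled K815Q, which was chosen after seeing the data, changed none of the counts of members they gave.

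With the replicate number as a block, Mmp9 was called in labelled K815Q against LacZ (-0.37, adjusted p 0.0477 by edgeR), so the count there was 2, and the block changed no other count of members. Deviations from the group mean were correlated between libraries of the same number in different groups. Of 18 such pairs, 1 had a correlation over 0.1, and 4 of 12 libraries correlated best with their own number. Pairs that include LacZ had correlations of -0.127 to 0.0279, and those among the other groups 0.000193 to 0.122. The labels do not say what the number stands for, so whether it marks a shared batch cannot be told.

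Signs turned only in values that no setting called. Timp2 in WT against LacZ was -0.00474 with RLE scaling, -0.00774 with no filter, -0.000742 with 10 counts in every library and -0.00480 with DESeq2, and Mmp14 in K815R against LacZ was 0.000878 with upper-quartile scaling. With single libraries left out, signs turned against LacZ in Mmp14 for WT (-0.0734 to 0.0339) and K815R (-0.0583 to 0.0429), Timp1 for K815R (-0.0396 to 0.0664) and labelled K815Q (-0.0949 to 0.0112), Timp2 for WT (-0.0267 to 0.0288), and Timp4 for WT (-0.289 to 0.0575) and labelled K815Q (-0.0369 to 0.390). They also turned against WT in Mmp2 (-0.0290 to 0.0579) and Mmp12 (-0.0974 to 0.0442) for labelled K815Q and Mmp14 for K815R (-0.0268 to 0.0625), and in Timp3 for K815R against labelled K815Q (-0.123 to 0.00198). Mmp12 kept its sign against LacZ in every such fit, with 0.67 to 0.96 for WT, 0.35 to 0.64 for K815R and 0.66 to 0.94 for labelled K815Q. Since Mmp12 was chosen for its rise over LacZ, nothing is read from the kept sign. Calls among the activators in WT against LacZ went from 3 to 5 with RLE scaling, no filter, 10 counts in every library or DESeq2. Those in K815R went from 0 to 1 or 2 with RLE scaling, no filter, DESeq2, the 6 libraries alone or without the libraries labelled K815Q. Without a filter, calls against LacZ also went from 1 to 2 for the other metalloproteinases in WT, from 1 to 2 for the ADAM and ADAMTS proteases in K815R, from 3 to 5 for the matrix substrates in WT (5 also with DESeq2 and with the replicate block), and for the regulators from 1 to 2 in K815R and from 2 to 5 in labelled K815Q. With the 6 libraries alone, the other metalloproteinases in K815R had 0 calls and the regulators 2, the latter also without the libraries labelled K815Q. With single libraries left out, calls in WT, K815R and labelled K815Q ran from 0 to 1 in each for the other metalloproteinases, 2 to 4, 0 to 2 and 1 to 4 for the activators, 1 to 3, 0 to 3 and 0 to 6 for the ADAM and ADAMTS proteases, 1 to 4, 1 to 2 and 1 to 5 for the substrates, and 2 to 3, 1 to 2 and 1 to 4 for the regulators. Calls over all genes in K815R against labelled K815Q went from 51 to 307 with no filter and 101 with DESeq2. Low counts limit Timp4 and Mmp3 most. The cause of these changes was not tested.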

Other observations

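Mmp7, matrilysin, another gene of the cluster that holds Mmp12, was singled out after its values were seen. It had 4, 7 and 6 reads with LacZ, 9, 17 and 8 with WT, 3, 3 and 6 with K815R and 12, 9 and 12 with labelled K815Q. WT and labelled K815Q lay above LacZ and K815R without overlap. Among all genes tested, 12.3% of them for WT and 13.9% for labelled K815Q lay above LacZ in this way. For K815R below labelled K815Q the share was 7.69%, and that for K815R below WT is not reported here. No comparison called Mmp7: its log2 fold changes against LacZ were 1.22 for WT (SE 0.420, adjusted p 0.0973) and 1.22 for labelled K815Q (SE 0.422, adjusted p 0.0756), by edgeR with Benjamini-Hochberg adjustment, and the K815R libraries with 3 reads stood at the floor.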
